A study of Mus musculus with 9 samples.

Results

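Txnip, its alpha-arrestin relatives Arrdc1, Arrdc2, Arrdc3 and Arrdc4, the glucose-sensing transcription factors Mlxip (MondoA) and Mlxipl (ChREBP), their partner Mlx, and the thioredoxins Txn1 and Txn2 were followed in cultured mouse podocytes. These 10 genes were taken by their symbols from a deposited table of 55385 genes, and all 10 were found and passed the filter on low counts. The cells were of the wild-type mouse line MCP5, which is labelled as a podocyte line and was the only line used. Of the 9 RNA sequencing libraries, 3 came from blank (untreated) cells, 3 from cells in high glucose (50 mmol/L) and 3 from cells given advanced glycation end products (AGEs, 400 µg/mL), which are proteins altered by reducing sugars. The sources used here do not give the time of treatment, the glucose in the control medium or any osmotic control. The labels number the libraries within a group and do not say whether these were separate cultures, so the p-values measure only how far these libraries spread, and this spread may be technical.

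Txnip is an arrestin-fold protein that binds reduced thioredoxin and promotes the removal of glucose transporters from the cell surface. Its transcription is a textbook readout of glucose: when glucose 6-phosphate is plentiful, MondoA or ChREBP, each paired with Mlx, enters the nucleus and binds carbohydrate response elements, which are paired E-box-like sequences, at Txnip, Arrdc4 and genes of glycolysis and lipid synthesis. The alpha-arrestins link membrane proteins to ubiquitin ligases of the NEDD4 family, and Txnip has been studied in diabetic kidney cells for its part in oxidative and inflammatory stress.

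The promoters of Txnip, Arrdc4 and Mlxipl are shown because Txnip and Arrdc4 are textbook targets of MondoA and ChREBP and Mlxipl is itself one of the sensors. Each window runs from 250 bases before to 50 bases after the annotated start site of RefSeq on GRCm38.p6, and is written 5′ to 3′ on the strand of the gene. The windows are chr3:96557707-96558006 (plus strand) for Txnip, chr7:68749189-68749488 (minus strand) for Arrdc4 and chr5:135089640-135089939 (plus strand) for the upstream start of Mlxipl. Capitals mark each match on either strand to the E-box-like motif CACGNG, which includes the E-box CACGTG, and to the CCAAT box.
Txnip: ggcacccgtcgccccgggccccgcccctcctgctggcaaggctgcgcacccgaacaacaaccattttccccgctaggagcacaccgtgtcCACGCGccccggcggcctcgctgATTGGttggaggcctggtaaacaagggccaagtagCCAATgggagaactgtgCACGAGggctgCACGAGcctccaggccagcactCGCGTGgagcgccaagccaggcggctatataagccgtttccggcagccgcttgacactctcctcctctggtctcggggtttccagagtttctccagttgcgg
Arrdc4: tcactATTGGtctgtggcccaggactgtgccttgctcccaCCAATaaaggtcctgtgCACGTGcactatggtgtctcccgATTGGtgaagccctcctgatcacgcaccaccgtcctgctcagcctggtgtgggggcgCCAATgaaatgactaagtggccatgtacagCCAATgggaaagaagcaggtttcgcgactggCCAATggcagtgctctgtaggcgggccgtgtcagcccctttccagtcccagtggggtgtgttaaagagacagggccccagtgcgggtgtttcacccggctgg
Mlxipl: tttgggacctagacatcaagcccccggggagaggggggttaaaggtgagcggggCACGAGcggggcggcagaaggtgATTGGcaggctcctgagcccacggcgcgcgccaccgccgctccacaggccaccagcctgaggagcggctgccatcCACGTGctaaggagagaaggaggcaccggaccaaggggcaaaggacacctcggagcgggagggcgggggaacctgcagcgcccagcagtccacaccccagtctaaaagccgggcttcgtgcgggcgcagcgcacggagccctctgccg

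The Txnip window held 4 matches to CACGNG. The pair from base −85 to base −69 before the start site was formed by 2 copies on the same strand, 5 bases apart, reading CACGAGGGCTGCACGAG. Such a pair occurred in 16 of 32851 RefSeq mouse windows of the same length (0.0487%), and in no window of the other 9 genes. Arrdc4 had an E-box, CACGTG, from base −193 to base −188, and 6 CCAAT boxes on the 2 strands. At least 6 CCAAT boxes were found in 26 windows (0.0791%). Mlxipl had the E-box from base −98 to base −93 and another CACGNG match from base −196, and Mlx had the E-box from base −40. CACGTG was present in 7.15% of all windows, CACGNG in 27.5% and CCAAT in 37.4%. Arrdc1 held 2 CACGNG matches and Arrdc2 held 1, while the windows of Arrdc3, Mlxip, Txn1 and Txn2 held none. A match is a string of letters, and binding was not measured.

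Levels are given below as FPKM, the deposited values that are scaled to transcript length and library size. Changes are log2 fold changes fitted to the deposited counts with edgeR's quasi-likelihood test, with p-values adjusted by the Benjamini-Hochberg method over 17680 genes, and the threshold for a call was an adjusted p of 0.05. CPM are counts relative to library size after TMM scaling. On the log2 FPKM scale with 0.1 added, the median gene was 0.17 higher in high glucose than in control, against 0.03 with edgeR. The FPKM levels and sums below carry this offset between the groups. Total counts ranged from 46284878 (high glucose library 2) to 77242281 (high glucose library 1). High glucose libraries stood apart from the other 6 on the first principal component, which carried 60.8% of the variance. Of the podocyte markers, Wt1 had 0 to 11 counts per library and Ptpro 0 to 4, while Nphs1, Podxl and Synpo had 280 counts or more in each. Summed over 8 parietal epithelial markers, control libraries had 1056 to 1104 CPM and high glucose libraries 1966 to 2205 CPM. AGEs libraries had 1021 to 1246 CPM. Most of the high glucose rise came from Cd24a, whose mean went from 184 (control) to 1062 CPM (high glucose). Of the 8 genes, 4 were called higher in high glucose than in control (Cd24a, Epcam, Pax2 and Krt8) and 1 lower (Cd44). Krt18 (503 to 495 CPM), Pax8 (220 to 236 CPM) and Cldn1 (12.8 to 16.9 CPM) were not called. In the same order of groups, the sums over 7 tubular markers were 202 to 216, 667 to 800 and 177 to 282 CPM. Slc34a1 and Umod had 0 counts, and all 4 tested genes were called higher in high glucose. Endothelial, mesangial and leukocyte sums were also higher in every high glucose library than in any control library. Endothelial sums were small, 5.48 to 5.85 CPM in control and 12.4 to 15.1 CPM in high glucose. Cdh5, Kdr, Tek and Emcn had 8, 4, 7 and 4 counts in all. In the leukocyte list Csf1r and Cd14 were called higher and Cd68 lower (9.39 CPM in high glucose, 21.5 CPM in control). Ptprc, Itgam and Adgre1 had means under 1 CPM in both groups. The sums over 13 podocyte markers were 1106 to 1379 CPM in control, 1322 to 1398 CPM in high glucose and 1521 to 1675 CPM with AGEs. High glucose thus overlapped with control there and AGEs stood highest, but edgeR called 0 of 10 tested podocyte markers with AGEs against control. Of 10 podocyte markers tested, 3 were called higher in high glucose than in control and 1 lower. Of all genes tested, 39.3% were called in that comparison, 19.6% higher and 19.7% lower. The call counts of all marker lists are to be read against these shares. The sums of the other lists moved with the same contrast as the changes below, and the part of any marker list in those changes was not tested. Fewer cells of a type and less RNA per cell cannot be told apart in these libraries.

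Txnip (ENSMUSG00000038393, chromosome 3, 96557957 to 96561883, plus strand, GRCm38) was the member with the largest change. Its levels were 2.06, 2.02 and 3.10 FPKM in the control libraries, 50.6, 49.2 and 49.7 FPKM in high glucose, and 1.49, 1.81 and 1.11 FPKM with AGEs. The high glucose libraries lay within a few percent of each other and far above all 6 others, and each AGEs library lay below each control library. In high glucose Txnip rose 18.3-fold over control (log2 fold change 4.20, SE 0.22, adjusted p = 1.92e-06). Of the 17680 genes tested, 1.41% had a larger absolute change, and it ranked 163 from the largest rise. Against high glucose, Txnip was 29.4-fold lower with AGEs (log2 fold change −4.88, adjusted p = 9.42e-07). Against control the AGEs difference was −0.68 (SE 0.20, unadjusted p = 0.00696, adjusted p = 0.283) and was not called by edgeR. DESeq2 gave the same −0.68 with an adjusted p of 0.0421. An antisense gene, Gm15441, overlaps the whole of Txnip and had 106 counts over the 9 libraries, against 36811 for Txnip.

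**Figure D1:**
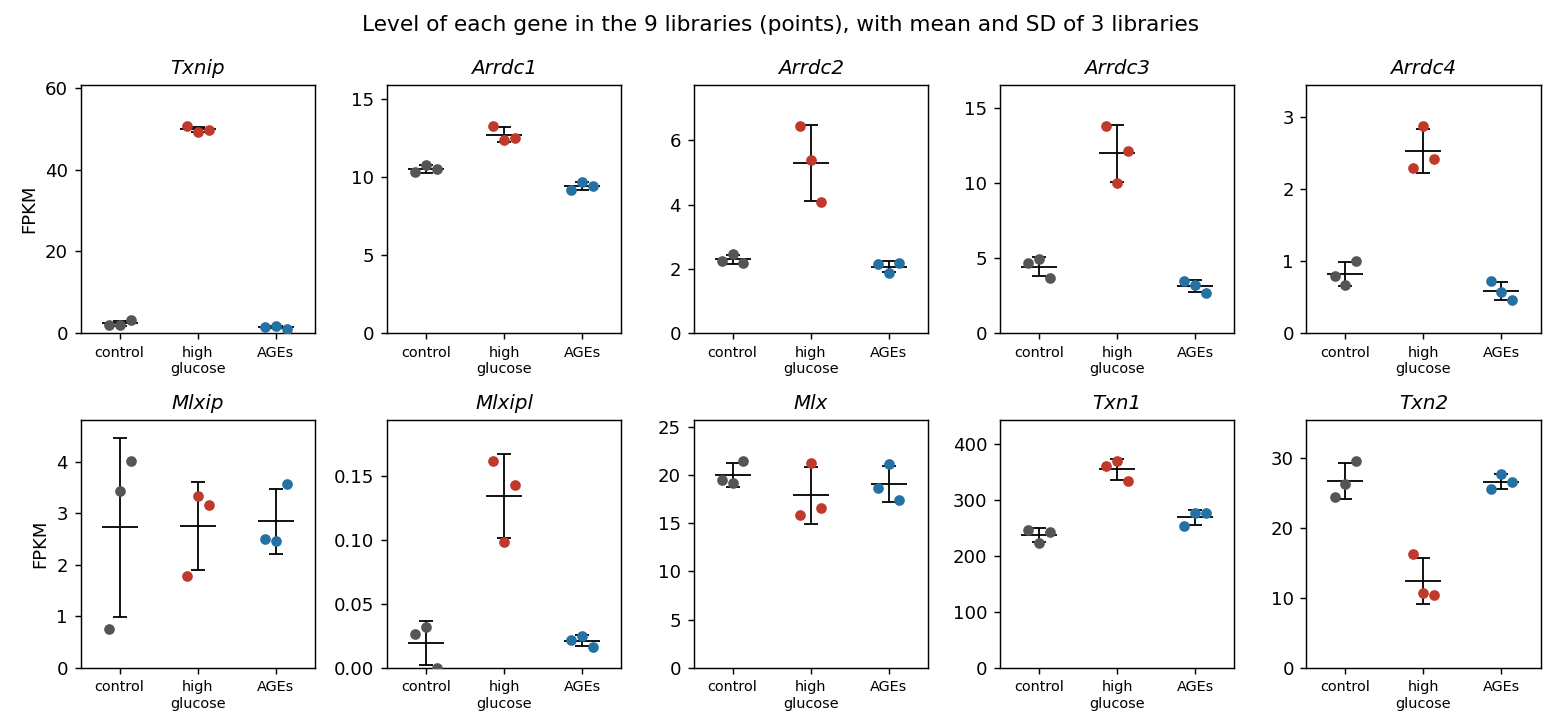
FPKM of each of the 10 genes (vertical axes, each from 0) in control, high glucose and AGEs libraries. Points are libraries 1, 2 and 3 from left to right, the long bar is the mean and the whiskers are 1 SD. Txnip sits between 49.2 and 50.6 FPKM in high glucose and at 3.10 FPKM or less elsewhere, and Txn2 is the member that is lower in each high glucose library.

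Arrdc4 is the alpha-arrestin most closely tied to Txnip in the literature on glucose sensing, and lies on chromosome 7 (68736995 to 68749241, minus strand). It was the least abundant alpha-arrestin in every group, at 0.796, 0.670 and 0.999 FPKM in control, 2.30, 2.87 and 2.41 FPKM in high glucose and 0.717, 0.573 and 0.460 FPKM with AGEs. All high glucose libraries exceeded all others, and the AGEs and control libraries overlapped. Arrdc4 rose in high glucose by 1.44 on the log2 scale (SE 0.21, adjusted p = 0.000548). It was lower with AGEs than in high glucose (−1.91, adjusted p = 0.000111).

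Arrdc3, an adaptor for beta-adrenergic receptors and integrins on chromosome 13 (80883384 to 80896035, plus strand), followed the same order. Its levels were 4.66, 4.91 and 3.69 FPKM in control, 13.8, 10.02 and 12.2 FPKM in high glucose, and 3.49, 3.18 and 2.69 FPKM with AGEs. None of the 3 groups overlapped with another. The rise in high glucose was 1.27 on the log2 scale (SE 0.16, adjusted p = 0.000203). The AGEs difference from control, −0.48, was not called (SE 0.15, unadjusted p = 0.0116, adjusted p = 0.315).

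Arrdc2, a less studied adaptor on chromosome 8 (70835129 to 70839720, minus strand), measured 2.25, 2.45 and 2.19 FPKM in control, 6.44, 5.40 and 4.08 FPKM in high glucose, and 2.14, 1.87 and 2.19 FPKM with AGEs. The lowest high glucose library stood above the highest of the others, although the high glucose libraries spread more than those of control or AGEs. In high glucose it rose 2.04-fold (1.03 on the log2 scale, SE 0.17, adjusted p = 0.00126).

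Arrdc1, which takes part in the budding of vesicles from the plasma membrane, lies on chromosome 2 (24925352 to 24935252, minus strand) and was the most abundant alpha-arrestin outside high glucose. It measured 10.3, 10.8 and 10.5 FPKM in control, 13.2, 12.4 and 12.5 FPKM in high glucose, and 9.17, 9.66 and 9.43 FPKM with AGEs. The 3 groups did not overlap, but the distances between them were small. Against control the fitted change in high glucose was 0.09 (SE 0.08, adjusted p = 0.411). Arrdc1 was lower with AGEs than in high glucose by −0.23 on the log2 scale (adjusted p = 0.0469). That call was lost in 12 of 17 alternatives. It was lost without any 1 of the 9 libraries, with adjusted p from 0.0627 to 0.166, and with a replicate block (adjusted p = 0.0992), with no filter on low counts (0.0902) and in a fit of only those 2 groups (0.0696).

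The alpha-arrestins together made up 20.5 ± 0.41 FPKM in control, 82.3 ± 3.53 FPKM in high glucose and 16.7 ± 0.68 FPKM with AGEs (SD, n = 3). In control, Arrdc1 supplied 51.5% ± 0.26 of this sum and Txnip 11.7% ± 2.98. In high glucose the order was turned, with Txnip at 60.6% ± 1.72 and Arrdc1 at 15.4% ± 0.08. The AGEs libraries resembled control in their order, with Arrdc1 at 56.6% ± 2.72 and Txnip at 8.78% ± 1.80. Arrdc4 stayed between 2.66% and 4.87% in all libraries, although its own level rose in high glucose.

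**Figure D2:**
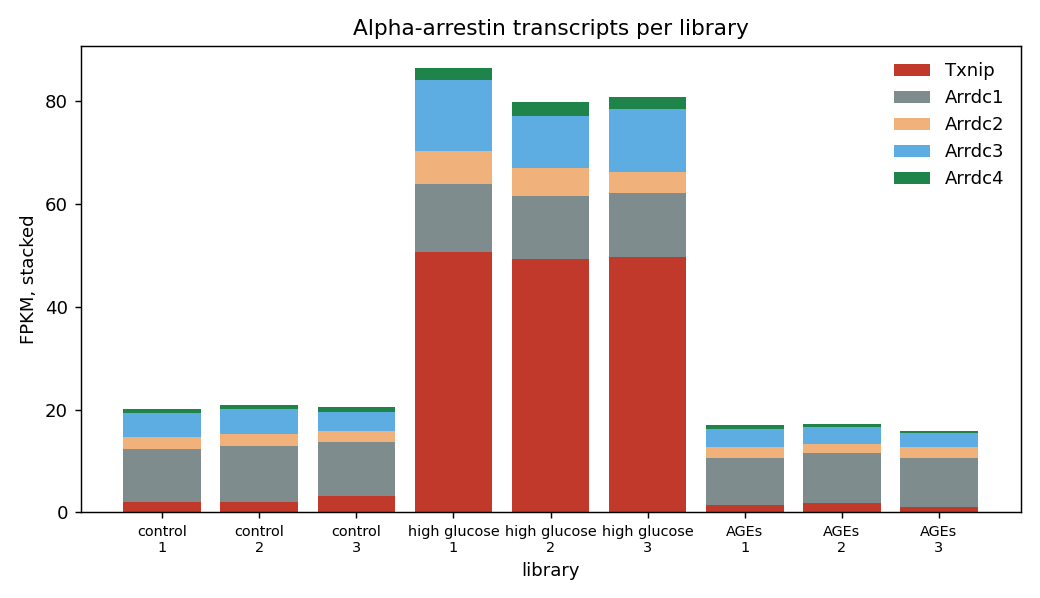
Stacked FPKM of Txnip and Arrdc1 to Arrdc4 (vertical axis, from 0) in each of the 9 libraries (horizontal axis). The high glucose bars reach 79.9 to 86.4 FPKM, of which Txnip is the largest segment, and the other bars reach 15.9 to 20.9 FPKM, with Arrdc1 the largest segment.

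The ratio of Txnip to Arrdc4 within a library shows how unequal the 2 changes were. On the log2 FPKM scale it was 1.53 ± 0.14 in control, 4.31 ± 0.19 in high glucose and 1.33 ± 0.30 with AGEs (SD, n = 3). The difference of high glucose from control was 2.78 (SE 0.14, two-sided exact permutation p = 0.1, adjusted p = 0.15 over 9 ratio tests). With 3 libraries against 3, 0.1 is the smallest p this test can give. The AGEs and control ratios differed by −0.20 (exact permutation p = 0.4), which is within the spread of the AGEs libraries.

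The glucose sensors themselves were less clear than the arrestins. Mlxip, which encodes MondoA and lies on chromosome 5 (123394798 to 123457932, plus strand), measured 0.746, 3.43 and 4.02 FPKM in control, 1.77, 3.34 and 3.16 FPKM in high glucose, and 2.503, 2.46 and 3.57 FPKM with AGEs. Control library 1 was low, with 461 counts against 2251 and 2318 in the other control libraries, and all groups overlapped. The fitted change in high glucose was −0.16 (SE 0.50, adjusted p = 0.832) and turned to positive values in 6 alternatives, from 0.0096 with a replicate block to 0.26 with limma on log2(FPKM + 0.1). The AGEs difference was 0.09 (SE 0.50), and it became −0.36 without control library 1 and −0.13 without AGEs library 3. In control library 1, 15 of 10340 genes with a mean count of 500 or more were over 4-fold below both other control libraries, and this number was 7 to 19 in the 9 libraries.

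Mlxipl, which encodes ChREBP and lies on chromosome 5 (135089890 to 135138382, plus strand), was close to the limit of detection. Control libraries had 11, 15 and 0 counts, high glucose libraries 80, 29 and 65, and AGEs libraries 10, 12 and 8. The control libraries thus measured 0.0265, 0.0320 and 0 FPKM, the high glucose libraries 0.162, 0.0983 and 0.143 FPKM, and the AGEs libraries 0.0218, 0.0253 and 0.0166 FPKM. A count of 0 allows up to 3 counts, or 0.0503 CPM in control library 3, by counting error alone. Each high glucose library exceeded every other library, but the fitted change of 2.57 (SE 0.92) just missed the threshold (adjusted p = 0.0520). It passed with DESeq2 (log2 fold change 2.59, adjusted p = 0.00670), with upper-quartile scaling (adjusted p = 0.0491), with limma on the FPKM (0.00449 and 0.00263 with 1 and 0.1 added) and without control library 3 (log2 fold change 1.997, adjusted p = 0.0222). The mean level in high glucose, 0.135 FPKM, was far below the 2.76 FPKM of Mlxip.

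Mlx, the obligate partner of both sensors, lies on chromosome 11 (101087277 to 101092207, plus strand) and was far more abundant than either. It measured 19.5, 19.1 and 21.5 FPKM in control, 15.8, 21.3 and 16.6 FPKM in high glucose, and 18.7, 21.1 and 17.4 FPKM with AGEs. High glucose libraries 1 and 3 were below control, while library 2 lay among the control libraries in FPKM and just under them in CPM (43.2 against 43.8 CPM). The change of −0.34 was not called (SE 0.12, adjusted p = 0.0526). It was called without high glucose library 2 (−0.48, adjusted p = 0.0112) and by DESeq2 (−0.34, adjusted p = 0.0448). Mlx shares 385 exonic bases with Psmc3ip on the opposite strand, which had 27522 counts in all against 25554 for Mlx. No source used here gives the strand setting of the counting, so reads of this stretch cannot be assigned to either gene.

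The log2 FPKM ratio of Mlxip to Mlxipl was 4.33 ± 0.83 in high glucose and 7.07 ± 0.61 with AGEs (SD, n = 3). In the 2 control libraries with Mlxipl counts it was 5.78 ± 1.36 (SD, n = 2). Control library 3, left out for its Mlxipl count of 0, had the highest Mlxip level of all libraries (4.02 FPKM). Its missing ratio lies at the high end, so the control mean may be too low. High glucose differed from control by −1.44 (SE 1.07, exact permutation p = 0.4, where 0.2 is the smallest possible with 2 control libraries). AGEs differed from high glucose by 2.73 (SE 0.59, exact permutation p = 0.1), and by 1.02 with 0.1 FPKM added to each value. Transcripts of MondoA thus exceeded those of ChREBP per length in each library that had both.

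Txn1, the cytosolic thioredoxin that Txnip binds, lies on chromosome 4 (57943373 to 57956411, minus strand) and was the most abundant member in every group. It measured 246, 223 and 243 FPKM in control, 361, 369 and 333 FPKM in high glucose, and 253, 276 and 277 FPKM with AGEs. The groups did not overlap, with AGEs between control and high glucose. Txn1 rose in high glucose by 0.40 on the log2 scale (SE 0.08, adjusted p = 0.00257). The AGEs difference from control of 0.20 was not called (SE 0.08, unadjusted p = 0.0266, adjusted p = 0.362).

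Txn2, the mitochondrial thioredoxin, lies on chromosome 15 (77915047 to 77928974, minus strand) and went the other way. Its levels were 24.5, 26.2 and 29.5 FPKM in control, 16.2, 10.7 and 10.4 FPKM in high glucose, and 25.5, 27.7 and 26.5 FPKM with AGEs. Every high glucose library was below all others, with library 1 nearest to them, and the AGEs libraries lay within the range of control. Txn2 fell by 1.27 on the log2 scale in high glucose (SE 0.17, adjusted p = 0.000334), which is 2.42-fold lower. With AGEs it was higher than in high glucose by 1.29 (adjusted p = 0.000302) and differed from control by 0.01 (SE 0.17).

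Per length, Txn1 transcripts outnumbered those of Txnip 78.5 to 120 times in control, 6.71 to 7.51 times in high glucose and 153 to 250 times with AGEs. The log2 ratio of Txnip to Txn1 was thus higher in high glucose than in control by 3.83 (SE 0.19, exact permutation p = 0.1) and lower with AGEs than in control by −0.88 (SE 0.28, exact permutation p = 0.1). In each of these comparisons the groups did not overlap, and 0.1 is the smallest p possible.

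In control the order of FPKM levels was Txn1 (237 ± 12.7), Txn2 (26.7 ± 2.57), Mlx (20.03 ± 1.25), Arrdc1 (10.5 ± 0.26), Arrdc3 (4.42 ± 0.64), Mlxip (2.73 ± 1.74), Txnip (2.39 ± 0.61), Arrdc2 (2.30 ± 0.14), Arrdc4 (0.822 ± 0.166) and Mlxipl (0.0195 ± 0.0171; SD, n = 3 for each). Neighbours from Arrdc3 to Arrdc2 in this order overlapped, and the others did not. In high glucose Txnip (49.8 ± 0.71, SD, n = 3) moved from rank 7 to rank 2, above Mlx and Arrdc1. Txn2 (12.4 ± 3.28, SD, n = 3) came to rank 5, overlapping with Arrdc1 and Arrdc3. With AGEs the order was that of control except that Arrdc2 (2.06 ± 0.17) stood above Txnip (1.47 ± 0.35, SD, n = 3), and these did not overlap.

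Counted over the members, 6 of 10 were called in high glucose against control, 5 higher and 1 lower, with a median log2 fold change of 0.72. Of all genes tested, 39.3% were called, 19.6% higher and 19.7% lower, and the median was 0.03. Among the 5 alpha-arrestins 4 were called, all higher, with a median of 1.27. CPM of the groups did not overlap for 9 of 10 members, against 54.1% of all genes. The counts for these members are to be read against these shares.

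With AGEs against control edgeR called 0 of the 10 members, and 0.0848% of all genes. At an unadjusted p under 0.05 there were 4 members (Txnip, Arrdc3 and Arrdc4 lower, Txn1 higher), against 12.4% of all genes. DESeq2 called 1 member, Txnip, and 1.97% of the genes to which it gave an adjusted p. CPM did not overlap for 4 members, Txn1 being higher and Txnip, Arrdc1 and Arrdc3 lower, against 19.2% of all genes. Both treatments were set against the same control libraries.

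With AGEs against high glucose 6 of 10 members were called, Txn2 higher and the 5 alpha-arrestins lower, against 39.9% of all genes (19.7% higher, 20.2% lower). CPM did not overlap for 8 members, against 52.5% of all genes. The members not called were Mlxip (0.25), Mlxipl (−2.40, adjusted p = 0.0632), Mlx (0.29, adjusted p = 0.0916) and Txn1 (−0.20, adjusted p = 0.0629), each value being a log2 fold change.

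**Figure D3:**
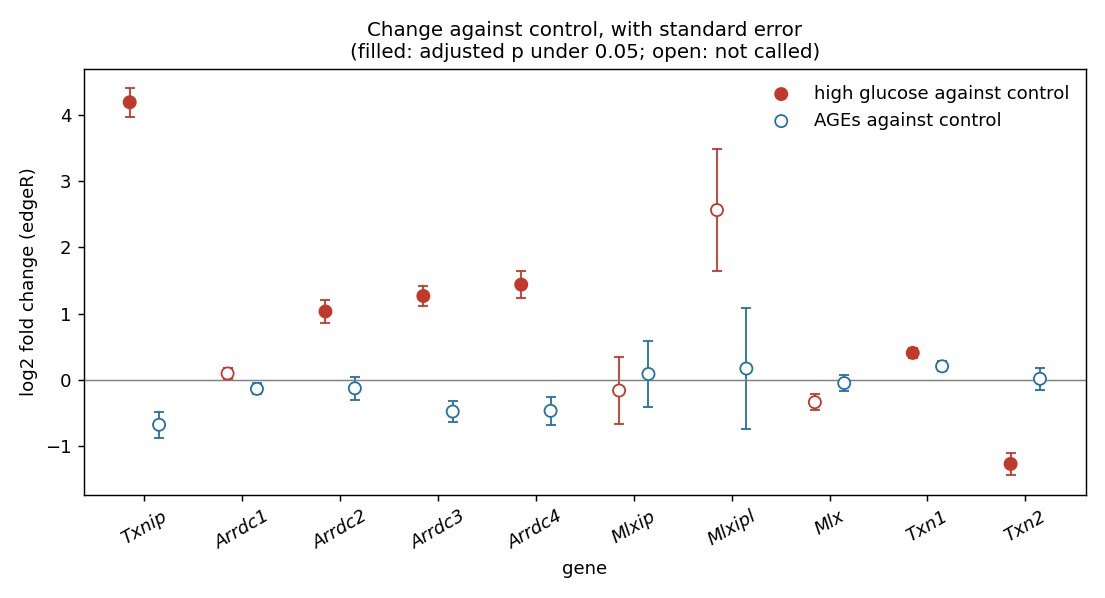
Log2 fold change (vertical axis) of each of the 10 genes (horizontal axis) in high glucose (red) and with AGEs (blue) against control, with standard errors. Filled points have an adjusted p under 0.05: 6 genes do in high glucose, with Txnip the highest at 4.20 and Txn2 the lowest at −1.27, and none do with AGEs.

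**Figure D4:**
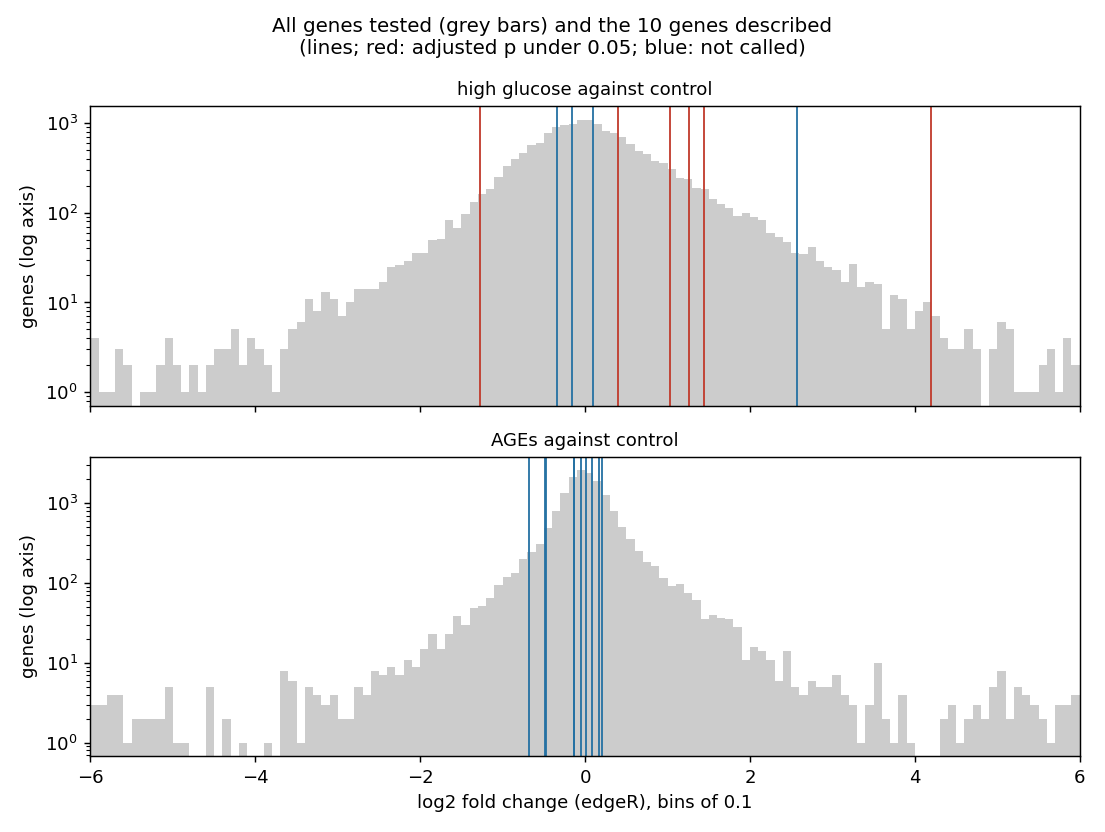
Number of genes (vertical log axis) by log2 fold change against control (horizontal axis, bins of 0.1) for the 17680 genes tested, with lines at the 10 genes described (red where the adjusted p is under 0.05, blue where it is not). In high glucose the distribution is wide and Txnip lies in its right tail at 4.20; with AGEs it is narrow and the lines lie between −0.68 and 0.20. The axis leaves out 157 genes beyond ±6 in high glucose and 54 with AGEs.

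The genes whose profile over the 9 libraries was nearest to that of Txnip were sought by Euclidean distance between centred log2(CPM + 1) values, among 11350 genes with a mean CPM of at least 1. The 6 nearest were Adgra1 (distance 1.30), Bmf (1.41), Klhl14 (1.78), Eya2 (1.87), Inmt (1.89) and C1qtnf1 (1.97). In that order their edgeR log2 fold changes in high glucose against control were 7.18, 6.18, 3.57, 5.56, 3.90 and 4.11, against 4.20 for Txnip. The added 1 CPM shrinks the changes of genes that lie under 1 CPM in a group, so a small distance does not mean an equal fold change. Adgra1, an adhesion G protein-coupled receptor, went from 0.234 ± 0.095 CPM (control) to 34.1 ± 2.56 CPM (high glucose), and Bmf, a pro-apoptotic member of the Bcl-2 family, from 0.194 ± 0.073 to 14.4 ± 2.57 CPM (SD, n = 3). They were chosen for this likeness, so their pattern is a description, and Adgra1, Bmf, Eya2 and C1qtnf1 had under 1 CPM in control and with AGEs and passed the filter through the high glucose libraries. Their Pearson r to Txnip was 0.953 to 0.997, and 818 genes had an r over 0.95. Mlxipl was below the CPM minimum and was not compared. Among the other members Arrdc3 (rank 274, distance 4.19) and Arrdc4 (rank 276, distance 4.20) came nearest to Txnip, then Arrdc2 (rank 855).

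Genes under the control of ChREBP and MondoA and of other linked pathways were counted next, and each count is to be read against the 39.3% of all genes called (19.6% higher, 19.7% lower). Of 25 ChREBP and MondoA targets tested, 10 rose in high glucose, 5 fell and 10 were not called, with a median of 0.23. Members that rose included Pklr, the liver and red cell pyruvate kinase (2.15), Scd2, a fatty acid desaturase (1.08), Elovl6, a fatty acid elongase (1.38), and Klf10, a zinc-finger factor (1.59). Those that fell included Fgf21, a metabolic hormone (−2.61), Angptl8, a secreted regulator of lipoprotein lipase (−2.37), and Fasn, fatty acid synthase (−0.58). Rises and falls thus stood side by side in this list.

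In the thioredoxin system, 6 of 20 genes rose, 4 fell and 10 were not called (median 0.17). Of all genes, 19.6% were called higher and 19.7% lower. Map3k5, the stress kinase ASK1 that thioredoxin holds in check, rose by 1.98, and the peroxiredoxin Prdx1 of the cytosol rose by 0.90. The mitochondrial peroxiredoxin Prdx3 fell by 0.44 and the glutaredoxin Glrx3 by 0.41. The reductases of thioredoxin, Txnrd1 (0.45) and Txnrd2 (−0.22), were not called.

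Of the partners of alpha-arrestins, the NEDD4-family ligases and their adaptors, 2 of 9 rose and 4 fell. Nedd4l (0.87) and Itch (0.35) were higher, Ndfip2 (−0.45) and Smurf1 (−0.27) lower. Of 5 other genes with an arrestin fold, the retromer gene Vps26a (−0.61) and the retriever gene Vps26c (−0.45) were lower and none was called higher. The beta-arrestins Arrb1 (2.08) and Arrb2 (−0.08) were not called.

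Of the Myc, Max and Mlx network, in which Max and Mlx share dimer partners, 2 of 10 genes rose and 4 fell. Myc fell by 1.70, Max by 0.55 and Mycl by 1.43, and Mxd3, a Max-binding repressor, rose by 1.68. Genes of glucose uptake and glucose 6-phosphate, the upstream signal of the sensors, gave 3 rises and 3 falls among 11. The glucose transporter Slc2a1, a target of Txnip, fell by 1.26, and Slc2a8 fell by 0.81. The hexokinases went opposite ways, Hk1 rising by 0.91 and Hk2 falling by 0.97. Slc37a4, the glucose 6-phosphate carrier of the endoplasmic reticulum, rose by 1.70. With AGEs against control no gene of any of these lists was called by edgeR.

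**Figure D5:**
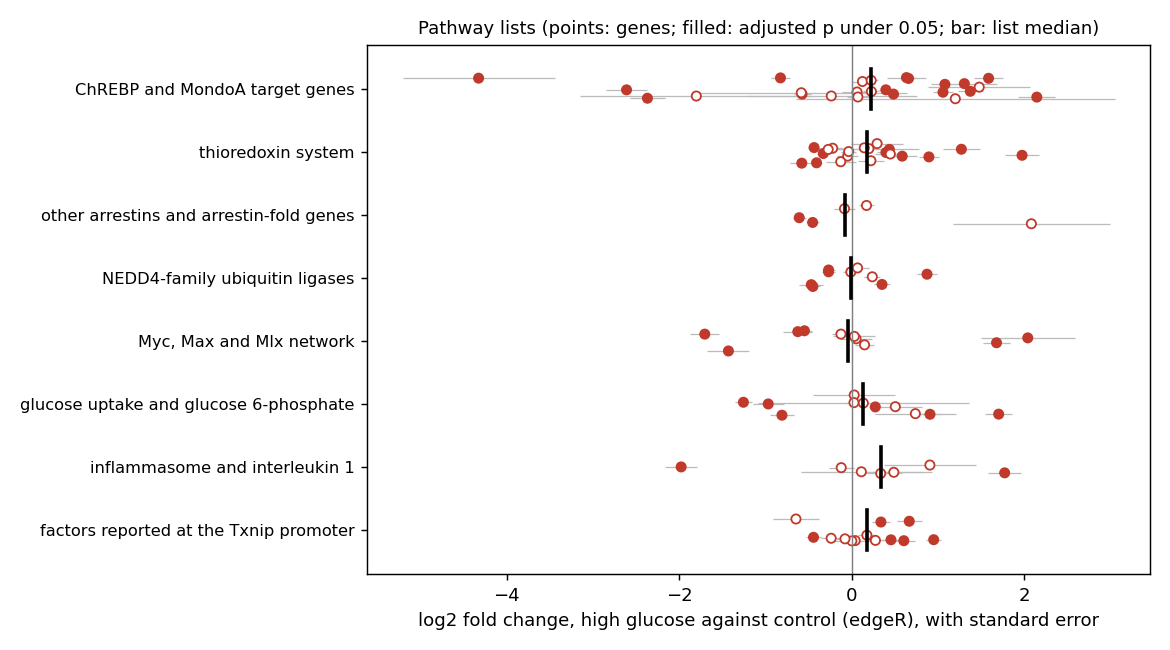
Log2 fold change in high glucose against control (horizontal axis) of the tested genes of 8 pathway lists (rows), with standard errors. Filled points have an adjusted p under 0.05 and black bars are list medians, which lie between −0.08 and 0.34; in the list of ChREBP and MondoA targets 10 genes are called higher and 5 lower.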

How the data were processed

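The 9 libraries were grouped by their labels. The authors deposited 1 table of whole-number counts and of FPKM per gene and library, per the file headers; a count of 0 carries 0.0001 FPKM there and was set to 0. Cutadapt 1.9, FastQC and GRCm38 are named in the submitters' processing notes; the aligner, counter, annotation and strand setting were not given there. Low counts fell on 4 (9186 entries) more often than on 3 (2519) or 5 (1474), so 1 fragment may add several counts. Floors take 1 count per fragment and cover counting error only, so they may be too low.

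Counts were fitted with edgeR 4.0.16 (R 4.3.3; TMM factors 0.935 to 1.10, filterByExpr, glmQLFit, glmQLFTest; all libraries, 3 group means, common coefficient of variation 0.278), two-sided, with Benjamini-Hochberg adjustment over 17680 genes. A standard error is the absolute log2 fold change over the root of F. The procedure was tested on simulated data with a coefficient of variation of 0.1, below the 0.278 of these libraries. That test therefore does not show how the procedure performs at the spread seen here. No replicate pair had counts close enough to be copies of 1 library (chi-square per degree of freedom 44.1 to 101, which several counts per fragment would raise). Ratios were compared with exact permutation tests (SciPy 1.17.1). Alternatives were DESeq2 1.42.0, limma 3.58.1 on log2(FPKM + 1) and log2(FPKM + 0.1), upper-quartile scaling, other filters, a replicate block, fits of 2 groups and each library left out. Named pathway genes are up to 4 called genes per list with the smallest p, and others were chosen after their values were seen. The members and lists were chosen with earlier results of these data known.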

Additional observations from a re-analysis of the deposited data

How the results depend on the processing

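In the 17 alternatives Txnip, Arrdc2, Arrdc3, Arrdc4, Txn1 and Txn2 kept their direction and their call in high glucose against control, and leaving out libraries moved the change of Txnip between 4.09 and 4.43. Members called with AGEs against control went from 0 to 1 with DESeq2. The Mlxip change in high glucose was 0.12 and 0.26 with limma (1 and 0.1 added), 0.0096 with a replicate block, and −0.61 to 0.23 with a library left out. With AGEs against control, leaving out libraries gave −0.36 to 0.48 for Mlxip, −0.40 to 0.75 for Mlxipl, −0.13 to 0.0033 for Mlx and −0.044 to 0.094 for Txn2, which was −0.0040 with upper-quartile scaling and −0.0046 and −0.0047 with limma. The Mlxip to Mlxipl ratio between AGEs and high glucose was 1.02 with 0.1 FPKM added, against 2.73; the cause was not tested. Over all genes, AGEs against control gave 15 calls, 268 with DESeq2 and 5 with a replicate block. Same-numbered libraries had deviations correlated between −0.155 and 0.0809, so the numbers were not taken as pairs. On the FPKM scale with 0.1 added the median gene was higher in high glucose by 0.17, and 67.9% of calls were higher (68.6% with 1 added) against 49.9% with edgeR; for AGEs against high glucose these were 30.1%, 29.6% and 49.4%. On that scale Arrdc1 was called higher in high glucose (0.25 and 0.27, adjusted p = 0.00724 and 0.00795). Of the members not called between AGEs and high glucose, Txn1 and Mlxipl were called lower with AGEs in 5 alternatives each and Mlx higher in 1. Depth limits Mlxipl above all, with 26 counts in control.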

Other observations

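Txnip has been linked to the inflammasome. Of 7 genes of that list tested in high glucose against control, 2 were called, against 39.3% of all genes: Casp1, which cleaves pro-interleukin 1 beta, rose by 1.77, Casp4, a sensor of intracellular lipopolysaccharide, fell by 1.98, and 5 were not called. Nlrp3, Pycard and Il1b had 12, 35 and 4 counts over all 9 libraries and were not tested.

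Of 13 genes for factors reported at the Txnip promoter, 6 were called in high glucose against control, 5 higher and 1 lower. Of all genes, 39.3% were called, 19.6% higher and 19.7% lower. The deacetylase Hdac1 rose by 0.95, the forkhead factor Foxo1 by 0.67 and the glucocorticoid receptor gene Nr3c1 by 0.60. Usf2, which binds E-boxes, fell by 0.44. Of the subunits of NF-Y, which binds CCAAT boxes, Nfyc rose by 0.34, and Nfyb (0.27) and Nfya (0.00) were not called.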
